A study of Mus musculus with 20 samples.

Results

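The comparison described here is cerulein against phosphate-buffered saline (PBS) in the pancreas of wild-type (WT) mice, 9 of the 19 libraries of the series that hold counts (20 are labelled). Its members were taken by genotype and treatment in the sample titles: 5 WT PBS libraries (replicates 1 to 5) and 4 WT cerulein libraries (replicates 1, 3, 4 and 5). The column of WT cerulein replicate 2 is 0 in every row and was left out. The mice were WT littermates of miR146a knockout (KO) mice, aged 6 to 8 weeks. They were injected intraperitoneally every hour, 7 times, with cerulein at 50 µg/kg or with 50 µl of PBS, and pancreas was taken 1 h after the last injection. The groups differ by the agent injected, and the labels give no sex, litter, cage or library batch for either group. The 2 groups of KO mice, 5 libraries each after PBS and after cerulein, entered the model as described in the methods and are quoted only beside WT values.

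Cerulein is a peptide that acts on the same receptors as cholecystokinin, the gut hormone that makes pancreatic acinar cells release their digestive enzymes. At doses above those that drive maximal secretion, acinar cells hold back their secretory granules, digestive proenzymes are activated inside the cell, and a short-lived, oedematous acute pancreatitis follows with recruitment of inflammatory cells. Pancreas RNA is dominated by a small number of very abundant enzyme messages from acinar cells, so the share that these take decides how many reads are left for every other gene.

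The deposited table holds 57126 rows with no gene identifier or name, and each row is taken here to be a gene. Rows are therefore named by their number, counted from 1 below the header, and only 2 that rose and 2 that fell are given by number. The identity of the tissue could not be checked against acinar, ductal, endocrine or inflammatory markers for the same reason, and no sequence is shown. In bulk tissue, more cells of a type and more RNA per cell cannot be told apart. The labels do not state that each sample is a separate animal, so p-values measure the spread between these samples.

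The PBS libraries were shallower than the cerulein libraries. WT PBS replicates 1 to 5 held 893520, 1257890, 8681076, 2117078 and 8813134 counts. WT cerulein replicates 1, 3, 4 and 5 held 6363147, 15725084, 4880131 and 15479938 counts. Replicates 1, 2 and 4 of PBS thus lay below every cerulein library, while replicates 3 and 5 lay within the cerulein range. Between 12472 and 16717 rows had at least 1 count in the PBS libraries, and between 15069 and 18116 in the cerulein libraries.

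The low counts did not fall evenly in most libraries, so totals alone may not give the depth. In 8 of the 9 libraries the number of rows at a given count fell from 1 count, then rose again to a later hump. In WT PBS replicate 1, 326 rows had 1 count, 210 had 2 and 315 had 8, the position of its hump. The hump lay at 8, 6, 13, 6 and 16 counts in PBS replicates 1 to 5, and at 7, 6 and 16 counts in cerulein replicates 1, 4 and 5. WT cerulein replicate 3 had no clear later hump: 467, 472, 429 and 454 rows had 2, 3, 4 and 5 counts, and 5 was its most frequent count from 5 up. Dividing each total by this position gave 111690, 209648, 667775, 352846 and 550821 in the PBS libraries and 909021, 3145017, 813355 and 967496 in the cerulein libraries. On that scale the groups did not overlap, and every PBS library was the shallower. The table gives no molecular barcodes, and the part of copied reads in these humps was not tested.

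**Figure D1:**
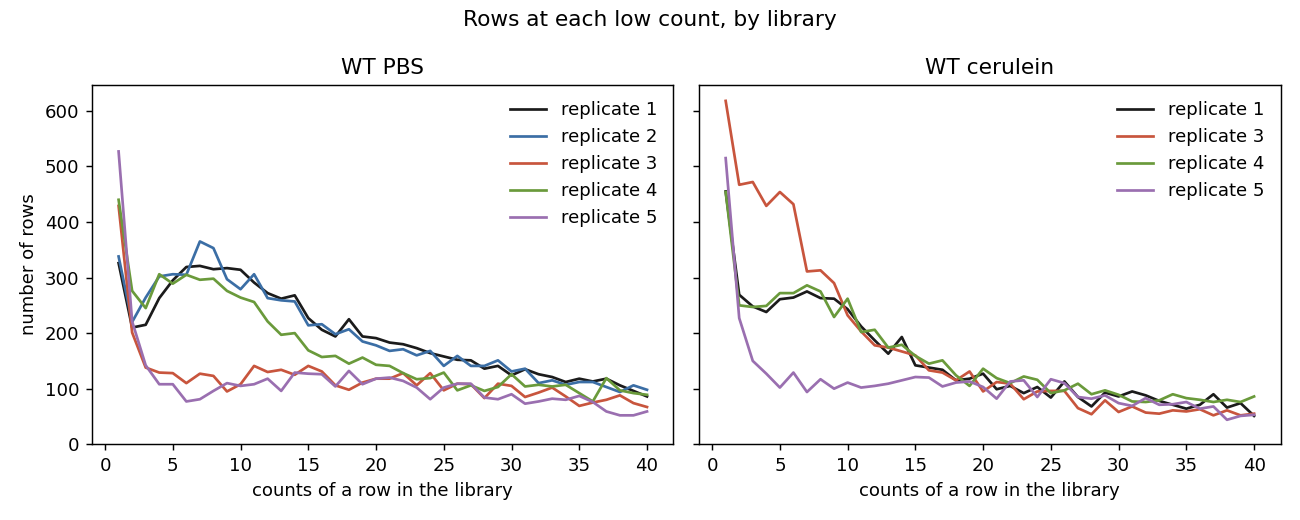
Number of rows (y axis) at each count from 1 to 40 (x axis), 1 line per library, WT PBS on the left and WT cerulein on the right. Lines fall from 1 count and rise again to a hump, at 6 to 16 counts in the PBS libraries; WT cerulein replicate 3 shows no clear hump, only small rises at 3 and at 5 counts.

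The most abundant transcripts filled an even part of every cerulein library and a very uneven part of the PBS libraries. The number of rows needed to reach 50% of the counts was 588, 97, 13, 1090 and 497 in PBS replicates 1 to 5, and 30, 22, 29 and 77 in cerulein replicates 1, 3, 4 and 5. PBS replicate 3 lay below all cerulein libraries and the other 4 PBS libraries above them. The means were 457 rows ± 432 (SD, n = 5) after PBS and 39.5 rows ± 25.3 (SD, n = 4) after cerulein, a difference of -417.5 rows that did not pass an exact two-sided permutation test (p = 0.0873, adjusted p = 0.190 over 4 such tests). The smallest p that this design can give is 0.00794.

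The 100 rows with the highest mean share over the 9 libraries held 32.2%, 48.9%, 69.7%, 16.5% and 35.4% of the counts in PBS replicates 1 to 5. In cerulein replicates 1, 3, 4 and 5 they held 57.8%, 60.5%, 58.3% and 50.9%. The groups overlapped through PBS replicate 3 alone. The means were 40.5% ± 19.9 (SD, n = 5) and 56.9% ± 4.14 (SD, n = 4), a difference of 16.3 points (exact permutation p = 0.143, adjusted p = 0.190). Rows outside the 1000 most abundant took 39.5% ± 14.2 (SD, n = 5) of the counts after PBS and 26.8% ± 2.69 (SD, n = 4) after cerulein, a difference of -12.7 points (exact permutation p = 0.127, adjusted p = 0.190).

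PBS replicate 3 was the only library through which the groups overlapped in these 3 measures. Leaving it out therefore fixed each exact permutation p at the smallest possible with 4 against 4 (0.0286), which adds no support. The differences were then -528.5 rows, 23.6 points and -17.8 points. Without PBS replicate 4, the least top-heavy library, the differences were -259.2 rows, 10.3 points and -8.25 points, with exact permutation p of 0.143, 0.286 and 0.229.

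**Figure D2:**
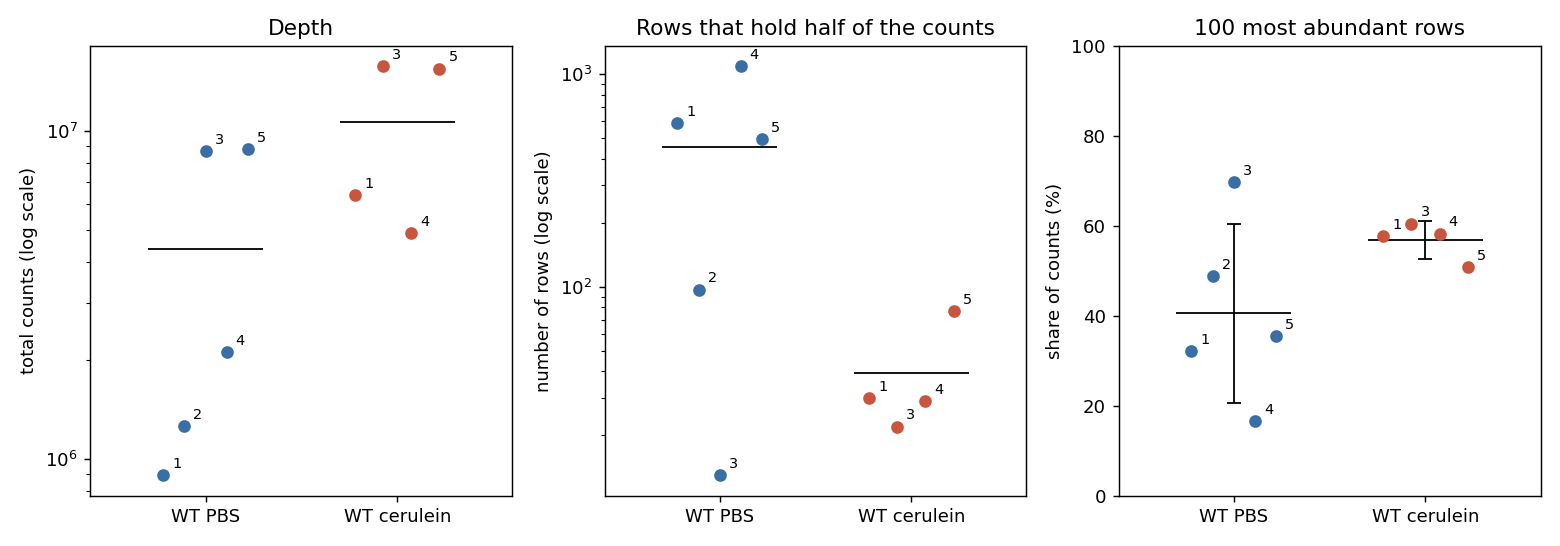
Total counts (log scale), number of rows that hold 50% of the counts (log scale) and share of counts in the 100 most abundant rows (%), 1 point per WT library, numbered by replicate; horizontal lines are means and, on the right, bars are 1 SD. The 4 cerulein libraries lie together at 22 to 77 rows and 50.9% to 60.5%, while PBS replicates 3 and 4 mark the ends of the PBS range, at 13 and 1090 rows.

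At equal total counts, no difference between treatments in the number of expressed rows was detectable. Equal totals may not be equal depth here. Before thinning, every PBS library was the shallower by its total over the position of its hump. That scale takes the humps as copied reads, which was not tested. After thinning to 893520 counts, the depth of the shallowest WT library, the expected number of rows with at least 1 count was 12472, 12478, 12877, 14897 and 15306 in PBS replicates 1 to 5. It was 13627, 14068, 13813 and 14275 in cerulein replicates 1, 3, 4 and 5, within the PBS range. The difference of 339.8 rows did not pass (exact permutation p = 0.603, adjusted p = 0.603), and its sign turned without PBS replicates 1 and 2 (-414.0 rows, exact permutation p = 0.543).

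With TMM scaling and edgeR more rows rose than fell after cerulein, an order that turned around with no scaling factor (201 higher, 285 lower). That order also turned around with DESeq2 (899 higher, 942 lower). Of 15831 rows tested, 889 differed between WT cerulein and WT PBS, which is 5.62% (edgeR quasi-likelihood test, Benjamini-Hochberg adjusted p under 0.05). The 676 that rose are 4.27% of the tested rows and the 213 that fell 1.35%. An unadjusted p under 0.05 was seen for 3524 rows, 318 had an adjusted p under 0.01 and 1684 one under 0.1. Among the 676 the fold change was under 2 for 41 rows, 2 to 4 for 330, 4 to 8 for 144, 8 to 16 for 60 and at least 16 for 101. Among the 213 that fell the numbers were 6, 106, 48, 18 and 35 in the same classes.

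The balance of rises and falls moved with the scaling of the libraries and with DESeq2 in place of edgeR. TMM, a scaling by trimmed means of ratios between libraries, gave factors from 0.654 in PBS replicate 3 to 1.90 in PBS replicate 4, and from 0.792 to 1.03 in the cerulein libraries. With it, 76.0% of the calls were rises and the median log2 change over all tested rows was -0.10. With RLE factors 64.4% of 866 calls were rises (558 higher, 308 lower; median -0.20), and with no factor beyond the library total 41.4% of 486 calls (median -0.71). DESeq2 called 1841 rows, 48.8% of them higher (899 higher, 942 lower). Its median was -0.20, as with RLE factors in edgeR. What made its balance differ from the 64.4% with RLE factors was not tested. With limma-voom 78.2% of 1278 calls were rises, and with sample weights added 69.3% of 1959, so the excess of rises stayed. All 889 rows kept their direction in each of these fits, which their selection for large changes nearly fixes.

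Rises were more often called among abundant transcripts. CPM, the number of counts in every 1000000 of the scaled library, is not adjusted for transcript length, so it ranks rows by reads and not by molecules. Rows were classed by their mean log2 CPM over the 19 libraries, turned back to CPM. Of 2503 rows under 1 CPM, 1.08% rose and 0.439% fell. Of 4866 rows between 16 and 64 CPM, 6.08% rose and 2.06% fell, and of 1371 rows between 64 and 256 CPM, 14.8% rose and 2.48% fell. Among the 219 rows over 256 CPM the shares were 12.3% and 5.94%. The median log2 change over all rows of a class, called or not, also rose with abundance. It was -0.71 under 1 CPM, 0.03 at 16 to 64, 0.25 at 64 to 256 and 0.53 over 256 CPM. The part of this shift in the calls was not tested. The precision moved with abundance too: the median SE of the log2 fold change was 1.26 for rows of 1 to 4 CPM, 0.39 for 16 to 64 CPM and 0.31 for 64 to 256 CPM. Of the 2251 rows whose fitted change exceeded 4-fold in either direction, 1845 were not called.

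**Figure D3:**
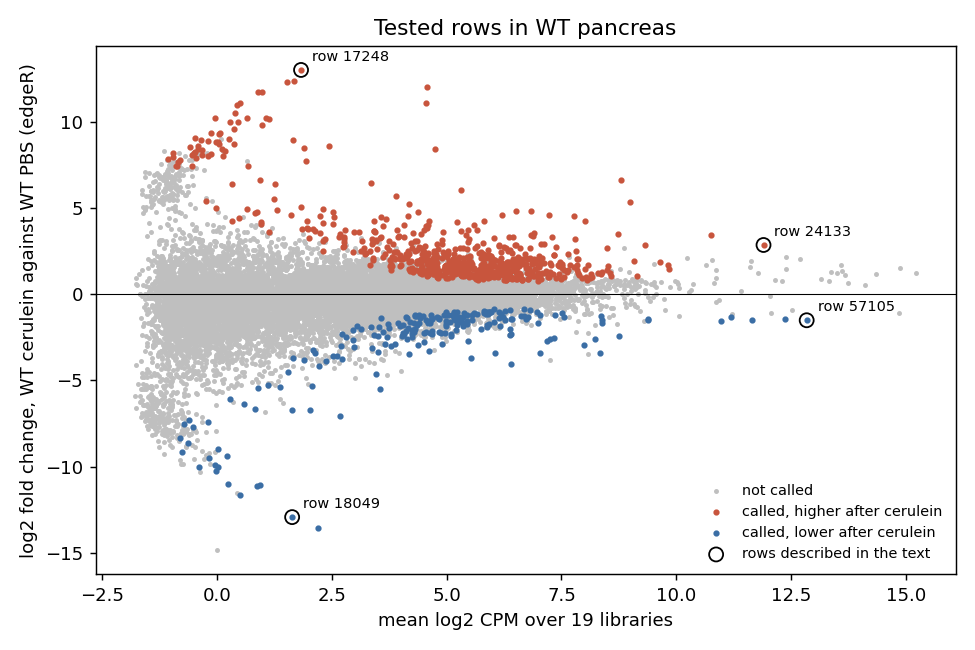
Log2 fold change of WT cerulein against WT PBS (y axis) against mean log2 CPM over the 19 libraries of the fit (x axis), 1 point per tested row, with rows that rose in red, rows that fell in blue and the 4 rows described by number circled. Calls at low abundance need far larger changes than calls above 16 CPM (log2 of 4). With TMM scaling and edgeR rises outnumber falls (676 against 213), which they do not with no scaling factor or with DESeq2.

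Among the 100 most abundant rows, which held 16.5% to 69.7% of a library, 11 rose, 9 fell and 80 did not pass the test, beside 4.27% and 1.35% of all tested rows. Their log2 changes ran from -3.80 to 12.04 with a median of 0.52 and a median SE of 0.51. The median over all tested rows was -0.10. The groups did not overlap for 15 of the 100 in the upward direction and for 9 in the downward direction, beside 8.75% and 3.18% of all tested rows.

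Rows that rose together took up 4.42%, 3.25%, 2.28%, 4.88% and 4.37% of the counts in PBS replicates 1 to 5, and 11.5%, 11.9%, 10.3% and 11.0% in cerulein replicates 1, 3, 4 and 5. Rows that fell took up 11.2%, 6.89%, 3.93%, 7.75% and 11.3% after PBS and 1.67%, 1.36%, 1.95% and 2.03% after cerulein. These shares describe rows chosen by the test and support nothing beyond it. The gain was spread over more rows than the loss: 30 of the 676 rows made up 50% of the summed rise in mean CPM, against 4 of the 213 rows for the summed fall. The 10 largest contributors carried 36.8% of the rise and 69.8% of the fall.

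Among called rows of at least 5 CPM in the higher group and without overlap, row 24133 had the largest rise in mean CPM. It was already among the 31 most abundant rows in 3 PBS libraries. It lay at 1393, 2610, 4168, 177 and 1211 CPM in PBS replicates 1 to 5 and at 15310, 15907, 12795 and 11123 CPM in cerulein replicates 1, 3, 4 and 5. The groups did not overlap, and PBS replicate 4 was far below the other 4. The mean was 1912 CPM ± 1529 (SD, n = 5) after PBS. It was 13784 CPM ± 2228 (SD, n = 4) after cerulein. The log2 fold change was 2.85 with an SE of 0.63, and the adjusted p from edgeR was 0.00912, with 4 of 4 cerulein libraries higher. It supplied 12.2% of the summed rise and 1.15% to 1.34% of all counts in the cerulein libraries. Without PBS replicate 4 the log2 fold change was 2.55 (edgeR adjusted p = 0.00568), and without PBS replicate 3 it was 3.35 (edgeR adjusted p = 0.00259). The call was lost in 6 of 26 alternatives, in which the log2 fold change was 2.39 to 3.58 and the edgeR adjusted p 0.0509 to 0.115. In KO mice the row went from 1765 CPM ± 564 to 10468 CPM ± 4988 (SD, n = 5 each), a rise of 2.57 on the log2 scale with an SE of 0.61 and an edgeR adjusted p of 0.0252.

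The largest rise in fold among called rows of at least 5 CPM without overlap was in row 17248. It had 0 counts in each of the 5 PBS libraries. After cerulein it had 535, 1129, 416 and 1601 counts in replicates 1, 3, 4 and 5, which scale to 96.2, 90.8, 94.4 and 100 CPM. These 4 values differ by less than 10 CPM although the depths differ by more than 3-fold. Against 3 counts over the whole PBS group (0.115 CPM), the level was at least 831-fold higher if each count was a separate molecule. The adjusted p from edgeR was 6.99e-07. The bound was 405-fold without PBS replicate 5, the deepest of that group, and 704-fold without PBS replicate 4.

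A set of rows had no count under PBS and rose after cerulein. Of 203 tested rows with no count in any PBS library and at least 1 after cerulein, 49 were called, all of them higher. Over all tested rows 4.27% were called higher, but rows without counts in WT PBS passed the filter only through other groups, so the shares are not compared. Of these 49, 43 had counts in all 4 cerulein libraries, and 46 to 49 were seen in each, which being called higher nearly fixes. Their summed level was 577, 723, 623 and 455 CPM in cerulein replicates 1, 3, 4 and 5, and their mean CPM ran from 1.96 to 95.4 with a median of 5.25. A count of 0 in the PBS group allows up to 0.138 CPM, unscaled, over its 21762698 counts, but up to 3.36 in replicate 1 alone. Both limits take each count as a separate molecule. In the KO mice, which share no library with the WT comparison, the same 49 rows summed to 26.2 to 87.2 CPM after PBS and 170 to 700 CPM after cerulein. All 49 had a count after cerulein there, 46 of them in all 5 libraries, and 11 had none after PBS. Between 5 and 32 of the 49 were seen in each KO PBS library. The matching shares of all tested rows were not computed, and the filter drew on the KO groups as well.

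Among called rows of at least 5 CPM without overlap, the largest fall in mean CPM was in row 57105, a row of very high abundance. It lay at 15775, 11745, 11464, 9075 and 18236 CPM in PBS replicates 1 to 5 and at 4701, 3974, 5158 and 4718 CPM in cerulein replicates 1, 3, 4 and 5. All cerulein values were below all PBS values. On this scale PBS replicate 4 was the PBS library nearest to them, and by unscaled share PBS replicate 3 was. The mean was 13259 CPM ± 3678 (SD, n = 5) after PBS. It was 4638 CPM ± 490 (SD, n = 4) after cerulein. The log2 fold change was -1.52 with an SE of 0.45, and the adjusted p from edgeR was 0.0481, with 4 of 4 cerulein libraries lower. As an unscaled share it was 2.68%, 1.44%, 0.749%, 1.71% and 2.77% of the counts after PBS and 0.411%, 0.314%, 0.466% and 0.486% after cerulein, again without overlap. The call is marginal: it was lost on leaving out any 1 of the cerulein libraries (edgeR adjusted p 0.104 to 0.156) or PBS replicate 1, 2 or 5 (0.0708, 0.0617 and 0.0919), and with the WT libraries alone (edgeR adjusted p = 0.165). In KO mice the row stood at 9424 CPM ± 4267 after PBS and 5121 CPM ± 909 after cerulein (SD, n = 5 each), a log2 change of -0.88 with an SE of 0.41 that did not pass (edgeR adjusted p = 0.310).

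The largest fall in fold among called rows of at least 5 CPM without overlap was in row 18049. It lay at 332, 35.7, 18.7, 35.3 and 37.0 CPM in PBS replicates 1 to 5 and at 0 counts in all 4 cerulein libraries. PBS replicate 1 stood far above the other 4. Against 3 counts over the cerulein group (0.0782 CPM) the level was at least 637-fold lower if each count was a separate molecule. The adjusted p from edgeR was 0.0118. The bound was 405-fold without PBS replicate 1 and 372-fold without cerulein replicate 5. The call was lost without PBS replicates 1 and 2 (edgeR adjusted p = 0.0513). In KO mice the row was at 0 counts in 2 of 5 libraries after PBS and in 2 of 5 after cerulein, and reached 62.3 CPM in 1 of the latter. Its KO means were 6.32 CPM ± 12.03 after PBS and 24.9 CPM ± 26.4 after cerulein (SD, n = 5 each). The log2 change there was 2.30, opposite in sign to that in WT, and did not pass (edgeR adjusted p = 0.521).

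**Figure D4:**
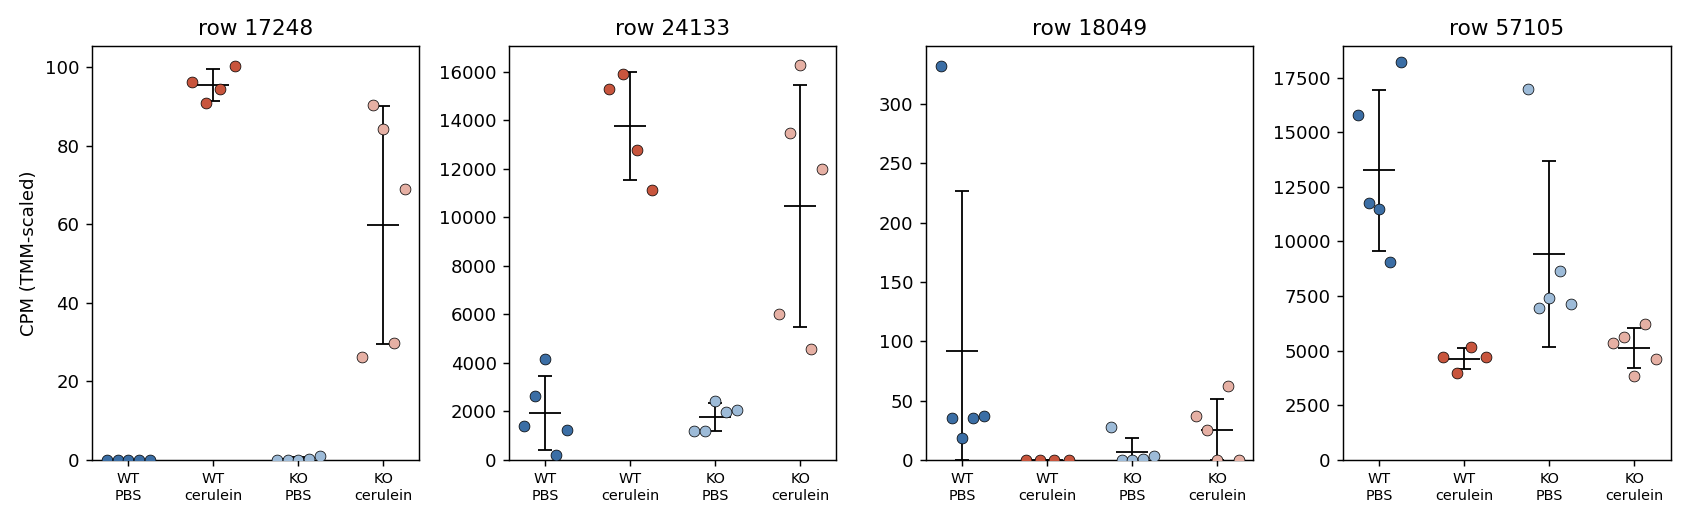
CPM (TMM-scaled) of rows 17248, 24133, 18049 and 57105 in every library of the 4 groups; dashes are means and bars 1 SD, cut at 0. WT PBS and WT cerulein do not overlap in any of the 4 panels, and 1 PBS library, at 332 CPM, carries the PBS mean of row 18049.

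Of 254 tested rows with a count after PBS and none after cerulein, 19 were called lower. Over all tested rows 1.35% were called lower, and the 254 likewise passed the filter only through other groups. Counts in all 5 PBS libraries, the shallowest at 893520 counts, were seen for 5 of the 19. Their summed level was 473, 129, 109, 540 and 952 CPM in PBS replicates 1 to 5. In the KO mice, 18 of the 19 had counts after cerulein, and 8 of 19 had a lower fitted level after cerulein than after PBS, against 46.6% of all tested rows.

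Separation of the groups was counted without any model of spread. All 4 cerulein libraries lay above all 5 PBS libraries for 1386 of 15831 rows (8.75%) and below them for 504 (3.18%). With a gap of at least 2-fold between the groups, 319 rows lay above and 54 below. Of the called rows, 655 of the 676 that rose and 144 of the 213 that fell were separated in this way, so 69 calls of a fall involved overlapping libraries. By library totals in place of scaled ones, 573 rows lay above and 752 below, which reverses their order.

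PBS replicate 4 stood apart by the lowest mean correlation of the PBS libraries with either group, by a small margin within PBS. Its highest correlation with another PBS library was 0.807, and the outlier check reported below flagged none of its values. Its mean Spearman correlation of log2 CPM with the other PBS libraries, across the tested rows, was 0.737, against 0.756 to 0.822 for the other 4, and with the cerulein libraries it was 0.719, the lowest of the 5. Of the PBS libraries, replicate 3 correlated more with the cerulein libraries (0.811) than with its own group (0.756). By a smaller gap so did replicate 5 (0.824 and 0.822). Replicates 3 and 5 were the deepest PBS libraries, and the part of depth in these correlations was not tested. Across all tested rows PBS replicate 4 was the highest of the PBS libraries for 25.2%, and the lowest for 17.2%. Among the rows that fell replicate 4 was the lowest for 82 of 213 (38.5%), and among the rows that rose it was the highest for 125 of 676 (18.5%). PBS replicate 3 was the highest for 219 of the 676 (32.4%), against 24.4% of all tested rows.

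To describe the position of each library without its own values in the calls, the model was refitted without it, and the left-out library was placed nearer to the mean of the other PBS or of the other cerulein libraries, row by row. For rows called higher, the left-out cerulein libraries lay nearer to cerulein in 96.8% to 99.7% of rows. The left-out PBS libraries lay nearer to PBS in 87.2%, 89.5%, 56.3%, 75.7% and 77.7% of rows for replicates 1 to 5. The lowest of these shares, for PBS replicate 3, stands for 494 of the 877 rows called higher without it. For rows called lower, the left-out PBS libraries lay nearer to PBS in 69.5%, 79.1%, 57.6%, 41.8% and 92.8% of rows, so that PBS replicate 4 lay nearer to cerulein for most of the 263 rows called lower without it. Cerulein replicate 5 lay nearer to cerulein in 58.4% of 113 rows called lower, and the other 3 cerulein libraries in 82.9% to 94.4%. Over all tested rows the shares were 47.8% to 58.3% for PBS and 62.7% to 70.5% for cerulein.

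**Figure D5:**
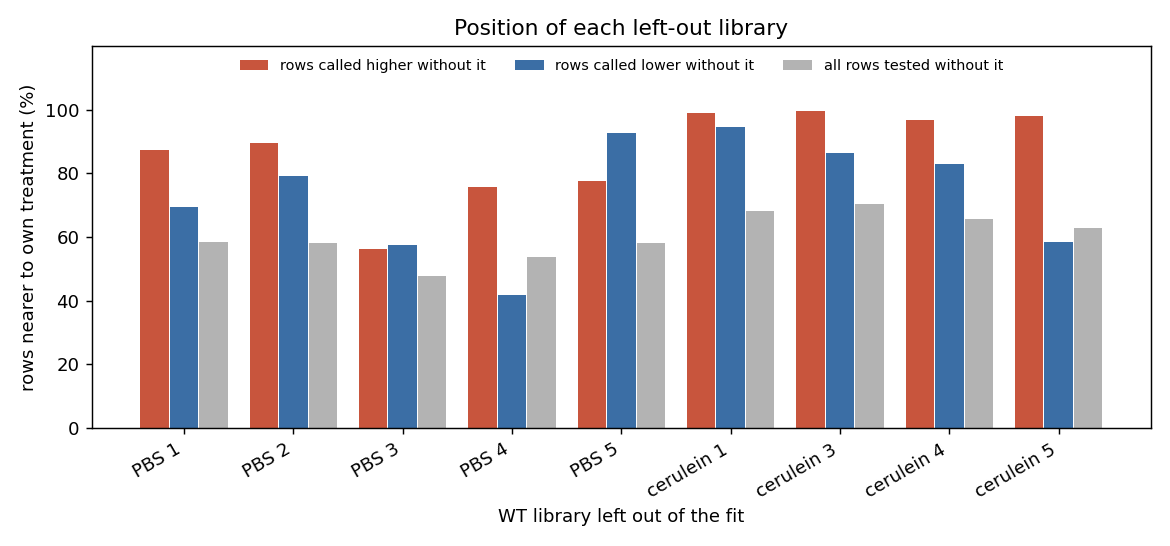
Share of rows (%, y axis) in which a WT library left out of the fit (x axis) lay nearer to the other libraries of its own treatment, for rows called higher or lower without it and for all rows tested without it. Cerulein libraries are near 100% for rises, PBS replicate 3 is at 56.3%, and PBS replicate 4 is at 41.8% for falls.

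Leaving out PBS replicate 4 gave 934 calls (671 higher, 263 lower), of which 732 were among the 889; the median log2 change of the 676 rows moved from 1.84 to 1.80 and that of the 213 from -1.89 to -1.97. Leaving out PBS replicate 3 gave 1167 calls (877 higher, 290 lower), 786 of them among the 889. The count fell without either of the 2 shallowest libraries, to 699 without PBS replicate 1 and 682 without PBS replicate 2, and to 698 without PBS replicate 5. It was 395 without both PBS replicates 1 and 2 and 215 without PBS replicates 1, 2 and 4, which leaves 2 PBS libraries. Without cerulein replicates 1, 3, 4 and 5 in turn, 443, 378, 570 and 618 rows were called.

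The spread between libraries of a group was compared at full depth and at equal totals. The median SD of log2 CPM over the tested rows was 1.12 in WT PBS (n = 5) and 0.52 in WT cerulein (n = 4); without PBS replicate 4 the PBS value was 0.98, and without replicates 1 and 2 it was 0.88. All 9 libraries were then thinned to 893520 counts, and 9569 rows passed the filter. Over those rows the median SD was 0.74 in PBS and 0.36 in cerulein at full depth, and 0.89 and 0.95 at equal totals. The mean Spearman correlation within a group was 0.673 (10 PBS pairs) and 0.893 (6 cerulein pairs) at full depth, and 0.579 and 0.591 at equal totals. The smaller spread of the cerulein group was not seen at equal totals, but PBS replicate 1 lost no counts in the thinning and every cerulein library did, so the groups were not treated alike. At these totals, with the WT libraries alone, edgeR called 147 rows (107 higher, 40 lower), 133 of them among the 889, against 730 with the same libraries at full depth. Of the 889 rows, 781 were tested there and 772 kept their direction.

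The rows called in WT mostly moved in the same direction in KO mice, whose libraries are separate. Of the 676 rows that rose in WT, 651 (96.3%) had a positive log2 change in KO, against 53.4% of all tested rows, with a median of 1.08 in KO and 1.84 in WT. Of the 213 that fell in WT, 172 (80.8%) had a negative change in KO, against 46.6% of all tested rows, with a median of -0.78 in KO and -1.89 in WT. The rows were chosen by their WT change, which enlarges the WT medians, and whether the KO response was weaker over these rows was not tested. Both responses came from 1 model that shares each row's estimate of spread. Most KO PBS libraries were also shallower than the KO cerulein libraries, and the part of depth in this agreement was not tested. None of rows 17248, 24133, 18049 and 57105 passed the test of the difference between the responses (interaction adjusted p of edgeR 0.308, 0.970, 0.263 and 0.833).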

How the data were processed

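RNA from snap-frozen pancreas was read as stranded polyA libraries in pairs of 98 bases, per the labels' protocols. The authors deposited these libraries together as raw counts, whole numbers, in a single table. The tools fastp and STAR and the build GRCm39 come from the submitters' processing notes. Versions, counting tool, strand setting and annotation: not given in the sources used here. Rows may share reads with paralogs or overlapping genes. Columns were matched to samples by library name.

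The test was edgeR 4.0.16 under R 4.3.3. Rows were kept by filterByExpr (minimum 10 counts, total 15), which left 15831. Libraries were scaled by TMM. All 19 libraries entered a quasi-likelihood fit, each of the 4 groups having its own mean and all sharing each row's spread, and p-values were adjusted by Benjamini-Hochberg. The code was run on simulated counts with known changes, drawn from a mean profile and a spread per row common to all libraries. That simulation did not copy the uneven composition, unequal spread or humps of these libraries. It therefore cannot show how these affect the calls. The SE is the fold change over the square root of F. Log2 CPM uses a prior count of 2. Low counts were smoothed over 5 neighbouring values. Values per library were compared by exact two-sided permutation tests of the difference in means, 4 in all, over 126 regroupings.

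Where a group held no count, a fold is printed as a lower limit set by 3 counts in that group, the lower of that from mean CPM and from pooled counts. Bounds cover counting error only and take each count as a separate molecule. With copied reads, which were not tested for, the limits would be weaker. Rows were named among those called, of at least 5 CPM in the higher group and without overlap: the largest rise and fall in fold and in mean CPM. Members, lists and this rule were chosen with earlier results of these data known. Alternatives used DESeq2 1.42.0, limma 3.58.1, other scalings and filters, fewer libraries and equal total counts.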

Additional observations from a re-analysis of the deposited data

Results flagged for a closer look

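Of 26 sets of WT library values examined (each measure or row in 1 group), 2 held a library far from the rest of its group, where about 1.3 would by chance. WT cerulein replicate 5 needed 77 rows to reach 50% of its counts, against 22 to 30 in the other 3 cerulein libraries. In WT PBS replicate 1, the level of row 18049 was 332.5 CPM, against 18.7 to 37.0 in the other 4 PBS libraries.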

How the results depend on the processing

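The count of 889 rows stayed within 1.5 times in 14 of 26 alternatives. It was 486 with no scaling factor, 1841 with DESeq2, 1959 with limma-voom and sample weights, 395 and 215 without PBS replicates 1 and 2 or 1, 2 and 4, 147 at equal totals, and 378 to 1167 with 1 WT library left out. Of 3 alternatives added after seeing the data, counts divided by the position of their hump gave 1374, the set without PBS replicates 3 and 4 gave 1061, and the third is the unblocked count of 575. Replicate numbers shared by the treatments did not pair the samples: same-number deviations correlated at -0.01, 0.04, -0.02 and 0.07 for numbers 1, 3, 4 and 5, and 1 of the 4 PBS libraries correlated best with its own number. With the replicate number as a block (8 libraries, numbers 1, 3, 4 and 5) 421 rows were called, and 575 in the same libraries without the block.

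Of the named rows, row 17248 kept its call in 26 of 26 alternatives (edgeR, DESeq2 or limma adjusted p up to 0.00377), row 18049 in 24, row 24133 in 20 and row 57105 in 12; none changed direction. The difference in rows detected at equal totals turned to -1171 with at least 5 counts required, -414.0 without PBS replicates 1 and 2 and -145.5 without replicates 1, 2 and 4. With 1 library left out it ran from 56.4 to 764.8. The difference in rows that hold 50% of the counts ran from -528.5 to -259.2, that in the share of the 100 most abundant rows from 10.3 to 23.6 points, and that outside the 1000 most abundant from -17.8 to -8.25 points. Separated rows were 573 and 752 by library totals and 319 and 54 with a 2-fold gap (higher and lower), and 1478 to 2012 and 585 to 894 with 1 library left out. A count of 0 allows up to 3.36 CPM, unscaled, in PBS replicate 1 and 0.191 in cerulein replicate 3. Both limits take each count as a separate molecule.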
